A study of Mus musculus with 4 samples.

Results

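The cells described here were OL-like tumor cells (cells resembling the oligodendrocytic lineage) that carried transcripts of S phase, the stage of the cell cycle in which DNA is copied. They came from a mouse model of high-grade glioma with MYCN (HGG-MYCN), profiled by single cell RNA sequencing with 10x Genomics 3′ chemistry. Brain tumors of 4 mice were sequenced, with mice 4 and 5 taken at an age of 43 days (P43) and mice 6 and 7 at an age of 70 days (P70). Each mouse gave 1 tumor and 1 library and was 1 replicate, so that age cannot be told apart from anything else that differed between both pairs of libraries. Every mouse had the genotype hGFAP-cre::TP53Fl/Fl::lsl-MYCN (lsl-MYCN as Fl/wt), which combines a Cre recombinase under the human GFAP promoter, floxed Trp53 alleles and a human MYCN transgene behind a floxed stop cassette in the Rosa26 locus, and no mouse without these alleles was in the comparison. Recombination in this model is directed at radial glia and so is not limited to the oligodendrocyte lineage. Transcripts were counted as unique molecular identifiers (UMIs), and levels are given below as CPM, the UMIs of a gene scaled to a common total of UMIs over the summed cells of a class in a mouse.

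The members were chosen by their own counts of the genes below, so these genes are described and not tested. Cells with 5000 to 40000 UMIs and under 25% mitochondrial UMIs were called OL-like if they had at least 2 UMIs of the transgene (firefly luciferase, FLUC, or human MYCN), at least 3 of the 6 genes Bcas1, Olig1, Olig2, Sox10, Cldn11 and Cnp, and at most 1 of the 4 neuronal genes Stmn2, Neurod1, Stmn3 and Ina. The S phase cells were those OL-like cells with at least 3 of the 7 genes Rrm2, Pcna, Cdc6, Ccne2, Mcm3, Mcm5 and Uhrf1 and at most 1 of the 7 mitotic genes Ccnb1, Cdc20, Ube2c, Cenpf, Cenpe, Plk1 and Tpx2. This gave 187 cells of 2596 OL-like cells and of 11834 barcodes in all. Mouse 4 gave 25 of these cells, mouse 5 gave 10, mouse 6 gave 15 and mouse 7 gave 137. Most members therefore came from 1 tumor, and all comparisons were made over mice and not over cells. DNA content was not measured, so that S phase here names a set of transcripts.

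A cell that commits to division first loads the MCM helicase onto origins of replication with the help of Cdc6 and Cdt1. E2F transcription factors then switch on cyclin E, the replication enzymes and the enzymes that make deoxynucleotides, and the sliding clamp encoded by Pcna holds the polymerases on the template. In G2 and mitosis another set of genes takes over, driven by B-MYB and FOXM1 through CHR and CCAAT elements, with products such as topoisomerase II, cyclin B and the kinetochore proteins. In the oligodendrocyte lineage, precursors divide, whereas myelin genes such as Mbp and Mog are switched on as cells leave the cycle.

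Stretches upstream of genes that define the S phase cells are shown because the 2 sets of gate genes differ in some of their promoter letters. Sequences are from RefSeq (GRCm38.p6), written 5′ to 3′ on the strand of the gene. Capitals mark any of the 6 strings TTTCCCGC, TTTGGCGC, TTTCGCGC, TTTGCCGC, TTTCCCGG and TTTGGCGG, which resemble E2F sites, or the CCAAT element (CCAAT or ATTGG), each searched on both strands. The stretches lie at chr12:24708141-24708240 (plus strand, upstream of Rrm2 and outside annotated genes), chr2:132253251-132253280 (minus strand, Pcna, in an annotated exon), chr11:98907991-98908090 (plus strand, in an intron of Cdc6), chr17:56304113-56304212 (plus strand, in an intron of Uhrf1, before its second listed start) and chr8:75109349-75109508 (plus strand, upstream of Mcm5 and outside annotated genes).
Rrm2: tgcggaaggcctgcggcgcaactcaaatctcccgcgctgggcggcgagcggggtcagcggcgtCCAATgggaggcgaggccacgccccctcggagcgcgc
Pcna: aaccacgggtacgATTGGtccttgaggaga
Cdc6: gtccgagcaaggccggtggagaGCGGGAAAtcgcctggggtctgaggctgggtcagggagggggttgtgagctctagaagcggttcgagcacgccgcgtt
Uhrf1: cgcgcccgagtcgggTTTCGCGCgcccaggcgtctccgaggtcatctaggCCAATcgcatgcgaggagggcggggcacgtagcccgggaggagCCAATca
Mcm5: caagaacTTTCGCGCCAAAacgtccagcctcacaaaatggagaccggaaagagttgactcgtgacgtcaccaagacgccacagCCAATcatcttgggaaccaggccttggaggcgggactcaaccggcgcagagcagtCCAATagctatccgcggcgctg

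In the window from 250 bases before to 50 bases after the start, an E2F string was present in 4 of the 6 S phase gate genes with an entry (Cdc6, Mcm3, Mcm5 and Uhrf1) and in 0 of the 6 mitotic gate genes with an entry, against 4.55% of the 27025 genes in the table. The capital run in the Mcm5 stretch holds TTTCGCGC and, overlapping it, the reverse complement of TTTGGCGC. Rrm2 and Pcna had a CCAAT element and no E2F string. For Uhrf1 the E2F string lay in the window of the second listed start, and the window of the first held CCAAT elements alone. A CCAAT element was present in 5 of 6 and 6 of 6 of these genes, against 41.1% of all genes. The CHR letters TTTGAA, searched on both strands, were found in 0 of 6 and in 4 of 6 (Cdc20, Cenpf, Plk1 and Ube2c), against 20.2% of all genes. Beyond the gates, an E2F string was present in 8 of 17 genes of licensing and helicase, in 11 of 23 genes of polymerases and the fork and in 2 of 18 genes of the later cycle, and TTTGAA in 14 of 18 genes of the later cycle. A match describes letters and not a bound site, and Ccne2 and Tpx2 had no entry.

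The values that chose the members are given as a description. Among the 187 cells, Pcna was detected in 174 (93.0%) and Mcm3, a subunit of the replicative helicase, in 165 (88.2%). Mcm5, another subunit, was detected in 129 (69.0%) and Uhrf1, which guides the copying of DNA methylation, in 75 (40.1%). Ccne2, which encodes cyclin E2, Rrm2, a subunit of ribonucleotide reductase, and Cdc6 were found in fewer cells, at 58 (31.0%), 53 (28.3%) and 42 (22.5%). Most members thus entered through Pcna and the 2 MCM subunits. In mice 4, 5, 6 and 7, Pcna was at 148, 145, 136 and 179 CPM in these cells and at 76.2, 51.8, 63.1 and 57.6 CPM in OL-like cells with low cycle counts. Rrm2 was at 29.6, 13.1, 24.4 and 31.8 CPM, and Cdc6 at 18.2, 26.3, 8.14 and 20.7 CPM. Uhrf1 ranged from 9.11 CPM in mouse 4 to 43.8 CPM in mouse 5, where 5 of its 10 UMIs came from 1 cell.

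Most members lay close to the edge of the gate. Of the 187 cells, 108 had 3 of the 7 S phase genes, 49 had 4, 12 had 5, 10 had 6 and 8 had all 7. Just outside, 260 OL-like cells had exactly 2 S phase genes and at most 1 mitotic gene. On the other axis, 80 members had no mitotic gene and 107 had 1, while 90 cells with at least 3 S phase genes had exactly 2 mitotic genes and stayed out. A much larger group of 975 OL-like cells carried at least 3 genes of both gates. The grid of detected gate genes shows members as a thin edge between cells with few cycle genes and cells with both programs.

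**Figure D1:**
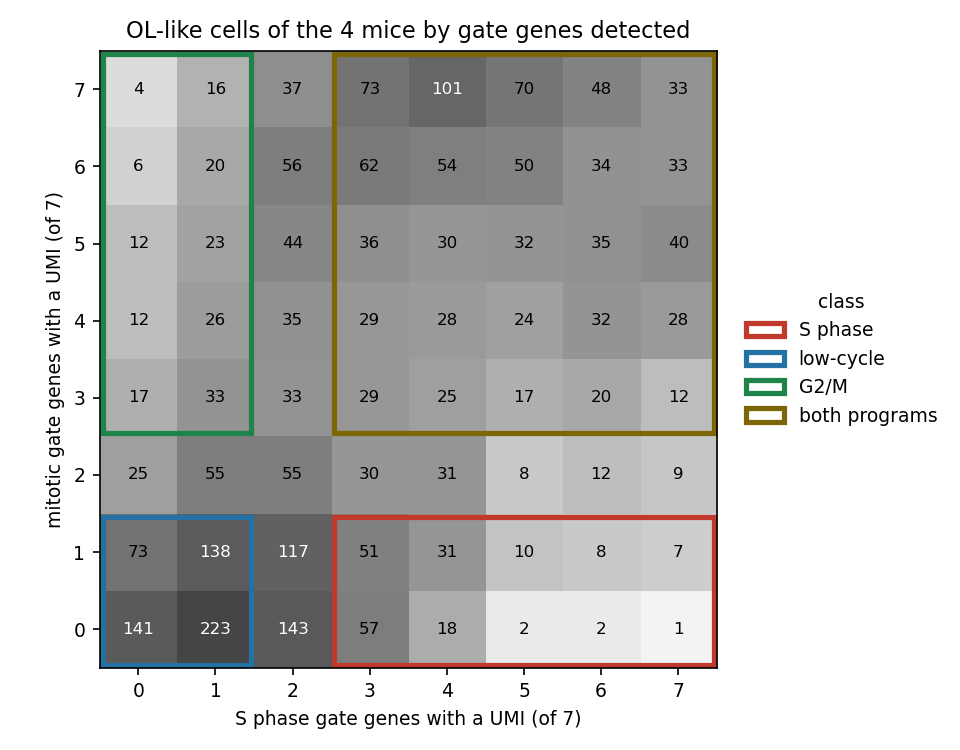
Number of OL-like cells of the 4 mice by how many of the 7 S phase gate genes (x axis) and how many of the 7 mitotic gate genes (y axis) had a UMI, with darker squares holding more cells. The red frame holds the 187 S phase cells, the blue frame the 575 low-cycle cells, the green frame the 169 G2/M cells and the brown frame the 975 cells with both programs.

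Detection in a gate of this kind depends on how many UMIs a cell has. S phase cells had median depths of 17477, 19759, 24283 and 14225 UMIs in mice 4 to 7. Low-cycle OL-like cells (at most 1 gene of each gate, 575 cells) had medians of 8528, 15185, 9135.5 and 9531 UMIs, and OL-like cells in G2 and mitosis (G2/M, at least 3 mitotic and at most 1 S phase gene, 169 cells) had 6359.5, 6864.5, 6843 and 9601 UMIs. S phase cells were the deepest of these 3 classes in every mouse, which is why shares are also given at equal depth. The summed S phase cells held 439163, 228177, 368500 and 1978418 UMIs, so that 1 UMI in mouse 5 weighed most. Exact Clopper-Pearson 95% intervals below cover counting error only.

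The share of OL-like cells in the S phase gate was 7.55% in mouse 4 (interval 4.95% to 10.9%) and 4.88% in mouse 5 (2.36% to 8.79%). It was 7.98% in mouse 6 (4.53% to 12.8%) and 7.32% in mouse 7 (6.18% to 8.59%). The intervals overlapped, and the mean was 6.22% ± 1.89 at P43 and 7.65% ± 0.467 at P70 (SD, n = 2 mice each). The difference of 1.43 percentage points had p = 0.667 in a two-sided exact permutation test, in which 0.333 is the smallest p that 2 against 2 mice allow, so no age difference could be shown with this design. With every cell thinned to 5000 UMIs the gate held 23, 17, 4 and 115 cells, or 6.95%, 8.29%, 2.13% and 6.14%, and the age difference turned to −3.49 points (exact permutation p = 0.333). The thinned gate held 159 cells, of which 56 were members and 103 had at least 2 mitotic genes before thinning. The order of the mice thus changed with depth, and mouse 6, which had the deepest S phase cells, had the lowest share once thinned.

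Cells without a transgene UMI give the background of this gate. Of 1455 such cells within the same limits of depth and mitochondrial share, 32 (2.20%) met the S phase gate, and 26 (1.79%) did so when thinned. Of the 732 among them with at least 3 myeloid markers, 16 (2.19%) met it. The pooled share in OL-like cells was 7.203%. In each mouse it lay above the share of cells without a transgene UMI, which was 2 of 171, 10 of 307, 16 of 897 and 4 of 80 in mice 4 to 7. In mouse 5, however, 9 of 84 cells with at least 3 myeloid markers met the gate (10.7%), more than the 4.88% of its OL-like cells, so that its share cannot be read as above background with all UMIs. Thinned, they were 3 of 84 (3.57%), below the 8.29% of its OL-like cells. The cells without a transgene UMI were shallower than S phase cells, with medians of 7578, 7662, 6787 and 6917 UMIs. Thinned, mouse 6 was at 2.13% against 1.67% in its cells without a transgene UMI, a difference of less than the counting error.

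**Figure D2:**
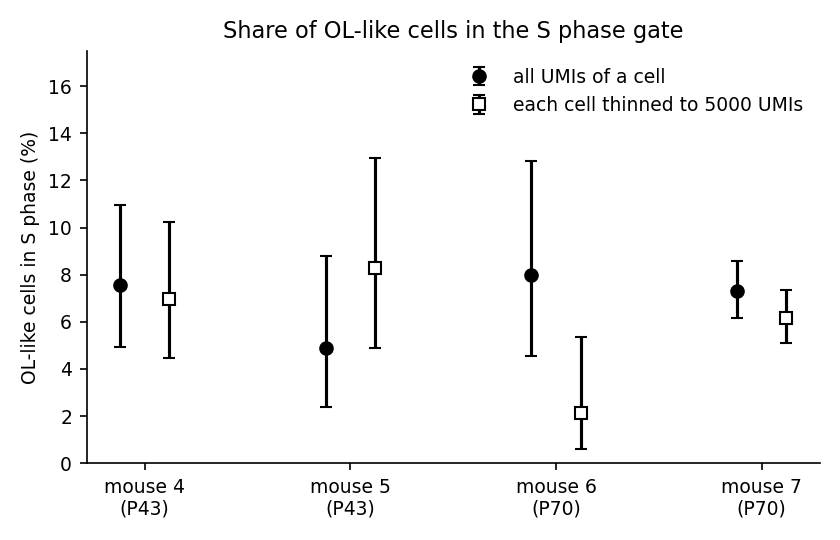
Share of OL-like cells in the S phase gate for each mouse (y axis, percent), with exact 95% binomial intervals. Filled circles use all UMIs of a cell and open squares use each cell thinned to 5000 UMIs, which lowered mouse 6 from 7.98% to 2.13% and raised mouse 5 from 4.88% to 8.29%.

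The lineage label was checked on genes outside the gate. In S phase cells of mice 4 to 7, Mbp, a major myelin protein, was at 2528, 2108, 1704 and 2027 CPM. Enpp6, a gene of newly forming oligodendrocytes, was at 203, 87.7, 285 and 221 CPM, and Gpr17, a receptor of committed precursors, at 148, 52.6, 144 and 101 CPM. Pdgfra and Cspg4, markers of normal oligodendrocyte precursors, summed to 6.83, 92.0, 13.6 and 8.59 CPM, and Pdgfra was at 0 in mice 4 and 6. UMIs of genes of committed and myelin-forming oligodendrocytes were thus found in these cells in every tumor, though no background level is given for them here. Opalin, a late myelin gene, was at 0 UMIs in mice 4 and 5. Pdgfra was at 43.8 CPM in mouse 5 and at 1.01 CPM in mouse 7. Of 6 markers of mature oligodendrocytes, 5, 5, 6 and 6 had a UMI, with Mobp the most abundant, and they summed to 865, 1845, 1075 and 1049 CPM.

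Markers of other cell types were highest in mouse 6 for the myeloid, mural and endothelial lists. The 9 myeloid markers summed to 11.4, 8.77, 141 and 22.2 CPM in S phase cells of mice 4 to 7, and in mouse 6 all but Cx3cr1 had a UMI, with C1qb highest at 40.7 CPM. The 8 mural markers summed to 20.5, 65.7, 977 and 9.10 CPM. In mouse 6, 295 of 297 UMIs of Rgs5, a pericyte gene, came from 1 cell, and without that cell Rgs5 was at 5.43 CPM in place of 806 CPM. The 8 endothelial markers summed to 95.6, 43.8, 185 and 55.1 CPM, most of it Itm2a (91.1, 39.4, 128 and 48.0 CPM), and the 5 astrocyte markers to 75.1, 30.7, 35.3 and 48.0 CPM, nearly all of it Aldoc, with Aqp4, Slc1a2 and Aldh1l1 at 0 in every mouse. The 6 neuronal markers summed to 63.8, 140, 193 and 172 CPM, with Tubb3 highest in each mouse and Rbfox3 and Dcx at 0 in mice 4 to 6. The 8 dendritic cell markers summed to 6.83, 0, 62.4 and 3.54 CPM, with H2-Aa highest in mouse 6. The 4 hemoglobin genes were at 0 throughout, and neutrophil and lymphoid markers were at or below 2.28 CPM. Of the 187 members, 15 carried at least 2 markers of 1 immune or vessel list, which served as a stand-in for doublets, and their part in the results was not tested beyond leaving them out. Barcodes shared between libraries numbered 1 to 3 per pair, and none was a member. Y-linked genes summed to 95.6 and 133 CPM in S phase cells of mice 4 and 6 and to 0 in mice 5 and 7, whereas the labels call mouse 4 female and mouse 5 male. Both are P43 mice, so an exchange between mice 4 and 5 would leave the age groups as they are. Whether another library was involved was not tested.

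Genes of replication that the gate did not use were compared next, first against low-cycle and then against G2/M cells of the same tumors. The classes were cut on cell cycle genes, so these genes had to differ in part and their values are a description. The same holds for the counts of calls and of mice given for each cell cycle list below. They show which genes followed the gate and are no test of it. Several subunits of the MCM helicase were highest in S phase cells. Mcm4 was at 61.5, 39.4, 114 and 106 CPM in S phase cells of mice 4 to 7. It was at 22.9, 22.8, 23.1 and 41.0 CPM in low-cycle cells and at 24.9, 0, 25.2 and 40.6 CPM in G2/M cells. S phase was thus the highest class in each mouse, with mean ratios of 2.92 and 3.53. Mcm2, at 66.0, 57.0, 51.6 and 53.1 CPM in S phase cells, was also highest there in all 4 mice (ratios 2.72 and 2.47), as were Mcm6 (2.32 and 1.53), Mcm7 (1.96 and 1.28) and Orc6, a subunit of the origin recognition complex (1.59 and 1.68). Dbf4, which activates the Cdc7 kinase, had another course, with 11.4, 13.1, 21.7 and 30.3 CPM in S phase cells against 74.6, 69.7, 63.1 and 73.4 CPM in G2/M cells. Of the 22 genes of licensing and helicase, 12 passed the filter on low counts against low-cycle cells. Of these 7 were called higher and 0 lower (edgeR quasi-likelihood test, adjusted p under 0.05), and 10 were higher in 4 of 4 mice, against 0.517% called higher, 0.972% called lower and 11.9% higher in 4 of 4 mice among all 6377 genes tested. Against G2/M cells 10 of the 22 were tested, and Mcm4 was called higher and Dbf4 lower (0.254% and 1.55% of all 4720 genes tested). In 4 of 4 mice 5 were higher, against 8.22% of all genes tested. Gates on thinned cells held largely other cells, as 56 of the 159 were members and 103 had at least 2 mitotic genes before thinning. All UMIs of these cells were summed, so that depth was not made equal. Against low-cycle cells, 13 of 16 tested genes of the later cycle were then called higher. For licensing and helicase these gates gave 15 of 20 called higher and 0 lower against low-cycle cells, where 5.13% and 3.25% of all genes were. Against G2/M cells they gave 9 of 21 higher and 1 lower, where 1.43% and 2.03% of all genes were.

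Some factors of the fork and of nucleotide supply were higher than in low-cycle cells. Against G2/M cells 0 of 15 and 0 of 18 tested genes were called, where 0.254% of all genes tested were called higher and 1.55% lower. With gates on thinned cells 7 of 27 and 2 of 20 were called higher than in G2/M cells and 0 lower, against 1.43% and 2.03% of all 7480 genes tested with that setting. Clspn, which encodes the checkpoint adaptor claspin, was at 34.2, 70.1, 27.1 and 47.5 CPM in S phase cells against 0, 8.29, 2.10 and 5.95 CPM in low-cycle cells, and in mouse 6 the G2/M cells were higher still at 37.8 CPM. Lig1, the ligase of lagging strand fragments, had 27.3, 87.7, 21.7 and 28.3 CPM against 1.91, 10.4, 10.5 and 8.29 CPM. Both genes were higher in S phase than in low-cycle cells of all 4 mice. Of 27 genes of polymerases and the fork, 17 were tested, 5 were called higher (Clspn, Lig1, Rfc3, Rfc4 and Topbp1) and 13 were higher in 4 of 4 mice, against 0.517% and 11.9% of all genes tested. With gates on thinned cells 26 of 27 were called higher, against 5.13% of all genes. Of 20 genes of nucleotide supply, 18 were tested and 3 were called higher, against 0.517% of all genes tested. Gates on thinned cells gave 11 of 19, against 5.13% of all genes. Among the 3 were Dut, which removes dUTP, and Umps, which serves uridine synthesis. Dut was at 221, 123, 209 and 212 CPM in S phase cells and at 118, 60.1, 107 and 99.5 CPM in low-cycle cells. Rrm1, the partner of Rrm2, was at 13.7, 30.7, 43.4 and 33.4 CPM and below the G2/M cells in all 4 mice. Tk1, the thymidine kinase of dividing cells, was near absent with 2.28, 0, 0 and 7.08 CPM.

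Regulators of the G1 to S transition fell into 2 kinds. Ccne1, which encodes cyclin E1, was at 38.7, 35.1, 86.8 and 33.9 CPM in S phase cells. It was at 15.2, 16.6, 27.4 and 13.4 CPM in low-cycle cells and at 14.9, 0, 25.2 and 13.5 CPM in G2/M cells, so that it peaked in S phase in each mouse. Cdc25a, the phosphatase that activates Cdk2, was at 52.4, 43.8, 70.6 and 68.7 CPM against 11.4, 22.8, 25.3 and 41.0 CPM in low-cycle cells. These 2 were the called genes of 13 tested in a list of 28, against 0.517% of all genes called higher. With gates on thinned cells 12 of 24 were called higher and 1 lower, against 5.13% and 3.25% of all genes. Ccna2, the cyclin of later S phase and G2, stayed at 11.4, 4.38, 8.14 and 10.1 CPM against 29.8, 92.9, 88.3 and 55.6 CPM in G2/M cells. Cdkn2a, which encodes the INK4A and ARF inhibitors, was at 262, 245, 242 and 339 CPM, and the inhibitor Cdkn1a, a p53 target, at 0, 0, 5.43 and 0.505 CPM. Cdkn1c, another inhibitor, was at 0, 1122, 100 and 258 CPM, and in mice 5 and 7 these were values that rested on 1 cell each with 251 of 256 and 507 of 510 UMIs.

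Some genes of the fork checkpoint and of chromatin assembly were highest in S phase cells, and others in G2/M cells. Dtl, the substrate receptor that destroys Cdt1 on loaded Pcna, was at 38.7, 35.1, 70.6 and 83.9 CPM, against 13.3, 8.29, 12.6 and 27.0 CPM in low-cycle cells and 24.9, 34.8, 25.2 and 35.6 CPM in G2/M cells. Hells, a chromatin remodeler, was at 13.7, 30.7, 24.4 and 50.04 CPM, with mean ratios of 4.82 over low-cycle and 4.67 over G2/M cells. Ung, which removes uracil from DNA, had ratios of 3.14 and 2.24, and Slbp, the protein that binds the stem-loop of histone mRNA, had 2.03 and 1.85. These 4 genes were highest in S phase in 4 of 4 mice. Of 26 checkpoint and repair genes 9 were tested and 3 called higher (Rad18, Dtl and Usp1), and of 14 genes of chromatin and histone supply 10 were tested and 4 called higher (Hmgb2, Atad2, Slbp and Nasp), against 0.517% of all genes. With gates on thinned cells 15 of 21 and 12 of 14 were called higher, against 5.13%. Against G2/M cells Dtl was called higher and Rad18 and H2ax lower in the first list (7 tested), where 0.254% and 1.55% of all genes were called. In the second, Hmgb2 and H2az1 were called lower and 0 of 9 higher, with a median log2 difference of −0.26. More genes of both lists were called higher than lower with gates on thinned cells. The first had 8 of 21 called higher and 2 lower. The second had 5 of 14 higher and 2 lower, and its median turned to 0.36. Among all 7480 genes tested with that setting, 1.43% were called higher and 2.03% lower. Histone transcripts depended on how the gate was applied. The 56 features of replication-dependent histones that were counted as a list had 7 members tested against low-cycle cells with 0 called and a median log2 difference of −0.07. With gates on thinned cells 22 were tested, 16 called higher and 1 lower, with a median of 1.81, where 5.13% and 3.25% of all 9195 genes tested with that setting were called. With all UMIs, H2bc4, the most abundant of them, was at 132, 394, 301 and 293 CPM in S phase cells, below 297, 433, 402 and 543 CPM in low-cycle cells. Replication-dependent histone mRNAs mostly lack a poly(A) tail, on which this chemistry relies, so their level here is a limited measure.

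Genes of the later cycle separated S phase from G2/M cells most sharply. Mki67, the Ki-67 antigen, was at 22.8, 48.2, 21.7 and 20.7 CPM in S phase cells and at 99.4, 592, 277 and 241 CPM in G2/M cells. Top2a, topoisomerase II alpha, was at 54.6, 65.7, 43.4 and 71.3 CPM against 199, 639, 404 and 260 CPM, while low-cycle cells had 9.53, 2.07, 6.31 and 18.9 CPM. Top2a thus took a middle place in all 4 mice. Hmmr, a spindle protein, was at 0, 0, 5.43 and 3.54 CPM in S phase cells against 49.7, 256, 183 and 136 CPM. Of 20 genes of the later cycle outside the gates, 13 were tested against G2/M cells and 12 were called lower, with a median log2 difference of −2.86, where 1.55% of 4720 genes were called lower and 9.32% were lower in 4 of 4 mice. The course of 12 genes over the 3 classes separates those that peaked in S phase from those that peaked in G2/M.

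**Figure D3:**
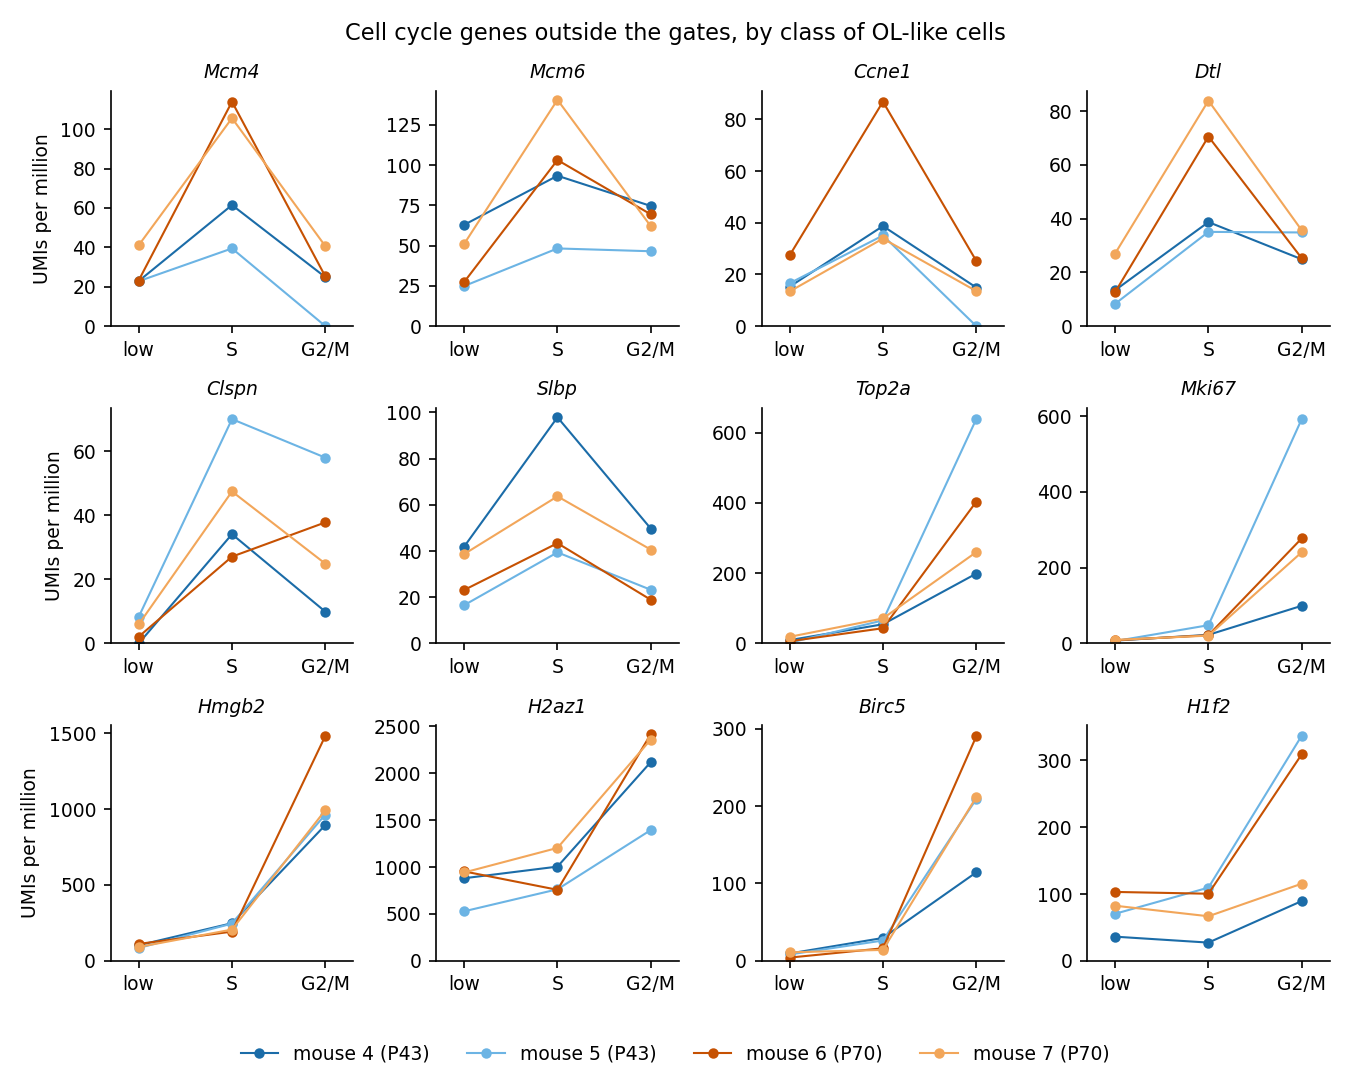
Level of 12 cell cycle genes outside the gates (y axes, CPM, scaled per gene from 0) in low-cycle, S phase and G2/M OL-like cells, with 1 line per mouse. Mcm4, Mcm6, Ccne1, Dtl and Slbp were highest in S phase cells of all 4 mice, and Clspn in 3 of 4. Top2a, Mki67, Hmgb2, H2az1, Birc5 and H1f2 were highest in G2/M cells of all 4 mice.

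Outside the cell cycle lists, S phase cells differed from low-cycle cells in several genes of the myelin-forming oligodendrocyte, which were lower. In the edgeR quasi-likelihood test with mouse as a block, 95 of 6377 genes were called (1.49%), 33 higher and 62 lower in S phase cells. Of the 33 higher genes, 25 belonged to the cell cycle lists. None of the 62 lower genes did. The block matters here, since without mouse in the model 0 genes passed with edgeR, although 360 had an unadjusted p under 0.05. Leaving out mouse 5 gave 41 calls and leaving out mouse 6 gave 145, and DESeq2 gave 38. The balance of directions turned with gates on thinned cells, where 472 of 9195 genes were called higher and 299 lower.

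Of 21 genes of the oligodendrocyte lineage outside the gate 18 were tested, and 7 were called lower in S phase cells, against 0.972% of all genes tested. Among the 7 were Mog, Mag, Ermn, Mobp, Tspan2 and Mbp, and 0 genes of the list were called higher. The list had a median log2 difference of −0.52, against 0.01 over all genes tested, and 8 of 18 were lower in 4 of 4 mice, against 10.7% of all genes. Mog, a myelin surface glycoprotein, was at 13.7, 4.38, 13.6 and 48.5 CPM in S phase cells of mice 4 to 7 and at 170, 329, 92.6 and 102 CPM in low-cycle cells. The classes did not overlap, and the log2 difference was −2.23 ± 0.36 (SE, edgeR adjusted p = 0.00247). Mbp was at 4214, 4248, 2540 and 2821 CPM in low-cycle cells, above the S phase values given earlier in each mouse, a log2 difference of −0.69 ± 0.14 (edgeR adjusted p = 0.0188). The calls of Tspan2, Mag and Ermn were lost without mouse 5, that of Mobp without mouse 4 and that of Mbp without mouse 4 or mouse 7. Mog kept its call whichever mouse was left out. Genes of the lineage that mark earlier steps did not pass, such as Gpr17 at 103, 178, 122 and 105 CPM in low-cycle cells, and the gate gene Olig2 had a mean ratio of 0.930.

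**Figure D4:**
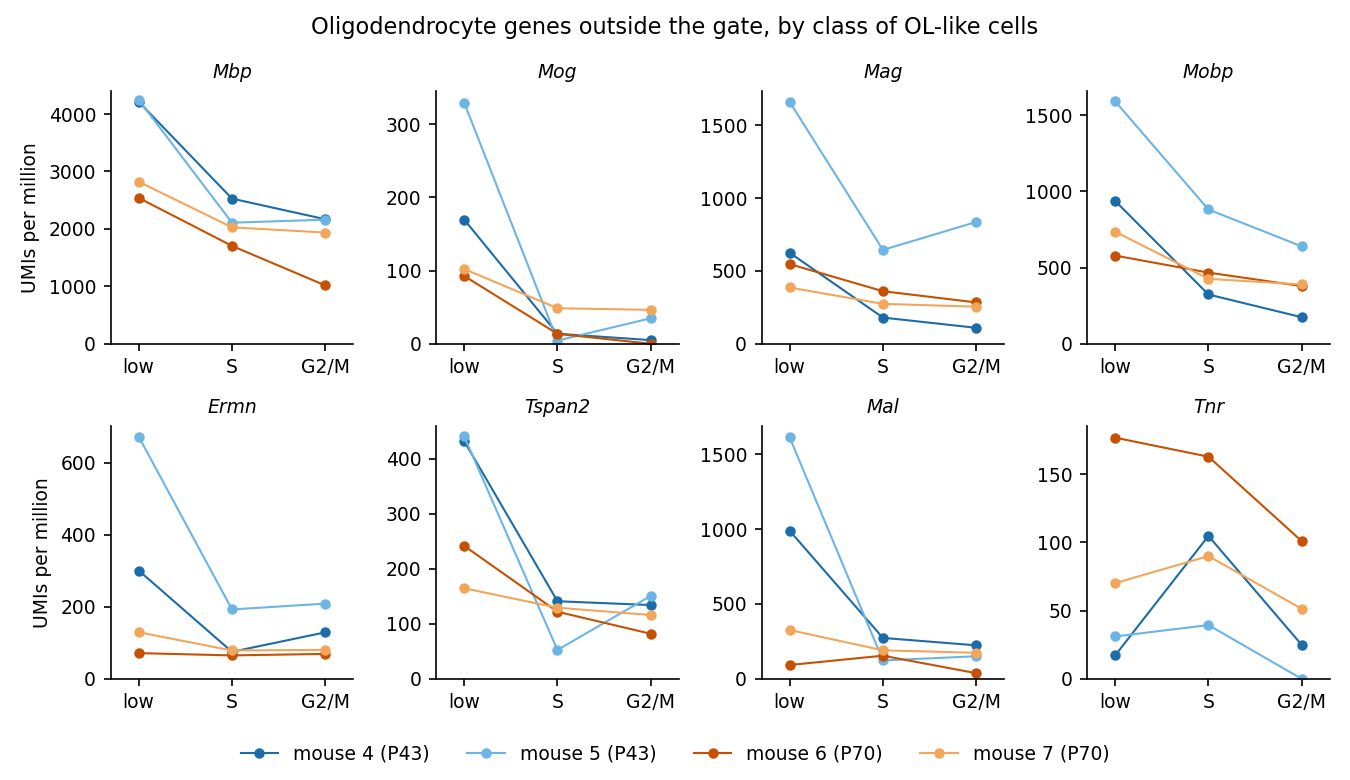
Level of 8 oligodendrocyte genes outside the gate (y axes, CPM, scaled per gene from 0) in low-cycle, S phase and G2/M OL-like cells, with 1 line per mouse. The 6 genes from Mbp to Tspan2 were lower in S phase than in low-cycle cells of all 4 mice, and Mal was lower in mice 4, 5 and 7. Tnr was higher in S phase than in G2/M cells of all 4 mice.

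Other genes that fell in S phase cells relative to low-cycle cells were of mixed kinds. Pdlim2 (chr14:70164218-70177681, minus strand), an adaptor of the actin cytoskeleton, was at 9.11, 0, 5.43 and 19.2 CPM against 251, 91.1, 44.2 and 81.0 CPM, a log2 difference of −2.94 ± 0.34 (edgeR adjusted p = 0.00023). Apoe, the lipid carrier made by glia, was at 9.11, 83.3, 206 and 111 CPM against 261, 367, 789 and 217 CPM, and Ptgds, prostaglandin D synthase of oligodendrocytes, at 797, 123, 212 and 1518 CPM against 2492, 1848, 768 and 2274 CPM. Every mouse moved the same way in these 3 genes, which the rule for naming genes required. Markers of other cells also differed between the classes. In low-cycle cells of mice 4 to 7 the astrocyte markers summed to 61.0, 39.4, 427 and 71.4 CPM, with Gfap at 284 CPM in mouse 6, and the endothelial markers to 370, 172, 112 and 64.4 CPM, above S phase cells in mice 4, 5 and 7. Their part in the decreases was not tested. The named set of largest decreases also held Fam13c, Kcna1, Ptprd, Egr1, Gsn and Ppp1r17, with log2 differences from −2.05 to −1.64. Egr1, an immediate early gene, was at 6.83, 8.77, 13.6 and 31.3 CPM against 141, 58.0, 80.0 and 52.1 CPM, a call that was lost without mouse 5.

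The 8 called genes that were higher in S phase cells and outside the lists were Cdca7, Tex30, Atad5, Tmpo, Ezh2, Nsd2, Mdc1 and Smc2. Cdca7, as an E2F target, and Smc2, as a condensin subunit, belong to the cycle on which the classes were cut. Their values are therefore a description. Cdca7 (chr2:72476159-72486893, plus strand), a MYC and E2F target that works with Hells, was at 84.3, 61.4, 51.6 and 73.3 CPM in S phase cells against 41.9, 22.8, 29.5 and 30.8 CPM in low-cycle cells. This was a log2 difference of 1.15 ± 0.21, with no overlap between the classes. Ezh2, the methyltransferase of histone H3 lysine K27, was at 180, 145, 155 and 208 CPM against 91.5, 120, 88.4 and 135 CPM, a log2 difference of 0.68 ± 0.15 (edgeR adjusted p = 0.0305). Smc2, a condensin subunit, had a log2 difference of 0.87, but was higher still in G2/M cells at 114, 209, 183 and 153 CPM. None of the 5 that the naming rule took (Cdca7, Smc2, Nsd2, Tmpo and Ezh2) was called by DESeq2 or by edgeR without mouse 7.

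Growth genes gave no call against low-cycle cells with all UMIs. All 20 genes of ribosome biogenesis and MYC targets were tested and 0 were called, against 0.517% called higher and 0.972% called lower of all genes tested. In 4 of 4 mice 11 were higher (11.9% of all genes tested), and the median log2 difference was 0.27. With gates on thinned cells 5 of the 20 were called higher, against 5.13% of all genes. Their summed level was 10527, 11513, 11047 and 13041 CPM in S phase cells and 8610, 7562, 10183 and 10684 CPM in low-cycle cells, so that each tumor was higher in S phase. G2/M cells were at 11809, 11419, 14082 and 12957 CPM. Of 12 p53 targets, 5 were tested and 0 called, and Bax, the most abundant of them, was at 132, 228, 228 and 158 CPM.

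Against G2/M cells, 85 of 4720 genes were called (1.8%), 12 higher and 73 lower in S phase cells, with 0.254% called higher over all genes tested. Of the 73 lower genes, 54 were outside the lists. The G2/M cells were chosen by mitotic genes, so other mitotic genes had to differ in part, also those that the lists did not hold. The values of those named here are therefore a description. Cenpa (chr5:30666777-30674830, plus strand), the histone variant of centromeres, was at 25.05, 26.3, 0 and 19.2 CPM in S phase cells. In G2/M cells it was at 184, 325, 233 and 297 CPM, a log2 difference of −3.87 ± 0.28. Pimreg, a mitotic regulator, was at 4.55, 4.38, 2.71 and 3.03 CPM against 39.8, 128, 63.1 and 64.1 CPM. The classes were far apart for both. The other 8 of the 10 largest decreases (Ckap2l, Dlgap5, Knl1, Knstrn, Pbk, Spc25, Kif20b and Racgap1) had log2 differences from −3.61 to −2.43. They were lower in 4 of 4 mice, which the rule for naming genes required.

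Fewer genes were higher in S phase than in G2/M cells, and the 12 calls depended on the settings. They fell to 2 with DESeq2 and to 1 with equal cell numbers. The stricter gate of at least 4 S phase genes and no mitotic gene gave 0. An upper limit of 60000 UMIs gave 19, and leaving out the filter on low counts gave 38. Gates on thinned cells gave 107 higher and 152 lower. Tnr, which encodes the matrix glycoprotein tenascin-R of oligodendrocytes, was at 105, 39.4, 163 and 89.97 CPM against 24.9, 0, 101 and 51.3 CPM, a log2 difference of 1.03 ± 0.25 (edgeR adjusted p = 0.0225). Cntn2, a cell adhesion protein of axons and oligodendrocytes, was at 4.55, 83.3, 149 and 65.7 CPM against 0, 0, 0 and 34.9 CPM. Fabp7, a fatty acid binding protein of glial progenitors, was at 225, 180, 236 and 196 CPM against 159, 34.8, 75.7 and 123 CPM, a log2 difference of 0.91 ± 0.20 (edgeR adjusted p = 0.00546), but below the 276, 311, 501 and 368 CPM of low-cycle cells. Apoe, Mxd4 and 2310039H08Rik completed the named set, and for Apoe the direction depended on the gate, with a log2 difference of 1.19 that became −0.47 with gates applied to thinned cells. The call of Tnr was lost without mouse 4, that of Cntn2 without mouse 6 and that of Apoe without mouse 7. G2/M cells rested on 18, 8, 16 and 127 cells, so that a 0 in mouse 5 came from 86087 UMIs. Of 15 tested genes of the oligodendrocyte lineage Tnr alone was called, and Mbp was at 2168, 2161, 1015 and 1936 CPM in G2/M cells.

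Between the ages, S phase cells of the P43 and P70 mice differed by no gene that passed. Of 5965 genes tested with edgeR, 0 had an adjusted p under 0.05 (0%), the smallest adjusted p was 0.143, and 294 had an unadjusted p under 0.05. DESeq2 called 17 genes, 5 higher and 12 lower at P70, and edgeR called 5 genes lower when mouse 4 was left out, a fit in which mouse 5 alone stood for P43 and was assumed to vary like the P70 mice. With edgeR on all 4 mice each cell cycle list had 0 called genes, whereas the DESeq2 calls held Rad18 of the checkpoint list. In the licensing list 3 of 12 tested genes were higher and 2 lower at P70 with no overlap between the ages, where 24.8% and 11.6% of all genes tested did so.

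A run of neighbouring genes nonetheless stood out in the age comparison, at the locus that carries the transgene. The window was chosen after the values were seen, since 10 of the 20 genes with the lowest p lay within 2000 kb of Gt(ROSA)26Sor (chr6:113067428-113077333, minus strand, GENCODE vM21 on GRCm38). In that window 23 genes were tested, 20 of them at higher coordinates than its start. Of these 20, 17 were lower in both P70 mice than in both P43 mice. Among all genes tested 11.6% did so. The range from 100 to 700 kb from the start was also chosen after the values were seen, and its 16 genes (Lhfpl4 to Sec13) were lower at P70 with no overlap, with log2 differences from −3.17 to −1.94 and a median of −2.36. Outside that range on the same side Tamm41 was lower with no overlap, while Setd5, Atg7 and Vgll4 overlapped. Brk1 (chr6:113604772-113616951, plus strand), a subunit of the WAVE actin regulatory complex, was at 1945 and 2853 CPM in the P43 mice and at 640 and 425 CPM in the P70 mice, a log2 difference of −2.31 ± 0.30 (edgeR adjusted p = 0.143). Jagn1 (chr6:113442569-113448229, plus strand), a protein of the endoplasmic reticulum, was at 708 and 1757 CPM against 209 and 118 CPM. Tada3, a subunit of histone acetyltransferase complexes, was at 310 and 504 CPM against 67.8 and 37.4 CPM. Setd5, which begins beside the start of Gt(ROSA)26Sor on the other strand, was at 565 and 1096 CPM against 350 and 699 CPM.

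At lower coordinates than the locus the values differed. Rad18 (chr6:112619850-112696686, minus strand), a ubiquitin ligase of stalled forks, was at 11.4 and 52.6 CPM in the P43 mice and at 244 and 230 CPM in the P70 mice, a log2 difference of 2.97 ± 0.56 (edgeR adjusted p = 0.271). Srgap3, which lies between Rad18 and the locus, and Thumpd3, whose end runs into Gt(ROSA)26Sor, overlapped between the ages. Rad18 is on the checkpoint list, and it was higher in S phase than in low-cycle cells in all 4 mice and higher still in G2/M cells, at 19.9, 383, 372 and 358 CPM, so that in G2/M cells mouse 5 was level with the P70 mice.

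The summed level of the 16 genes was 6132 and 11123 CPM in S phase cells of mice 4 and 5 and 2315 and 1279 CPM in mice 6 and 7. In low-cycle cells it was 3961, 6438, 3133 and 907 CPM, and in G2/M cells 5972, 11744, 2623 and 807 CPM. In cells without a transgene UMI from the same tumors it was 1007, 987, 863 and 765 CPM. The P43 and P70 tumors thus lay farther apart in their OL-like cells than in their cells without a transgene UMI, a difference that was not tested. FLUC, the transgene reporter, did not follow the same order, with 610, 2279, 2038 and 1172 CPM in S phase cells, nor did human MYCN with 187, 1341, 1246 and 746 CPM. Both entered the rule that chose the cells. With 2 tumors per age, a difference between ages and a difference between single tumors cannot be told apart.

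**Figure D5:**
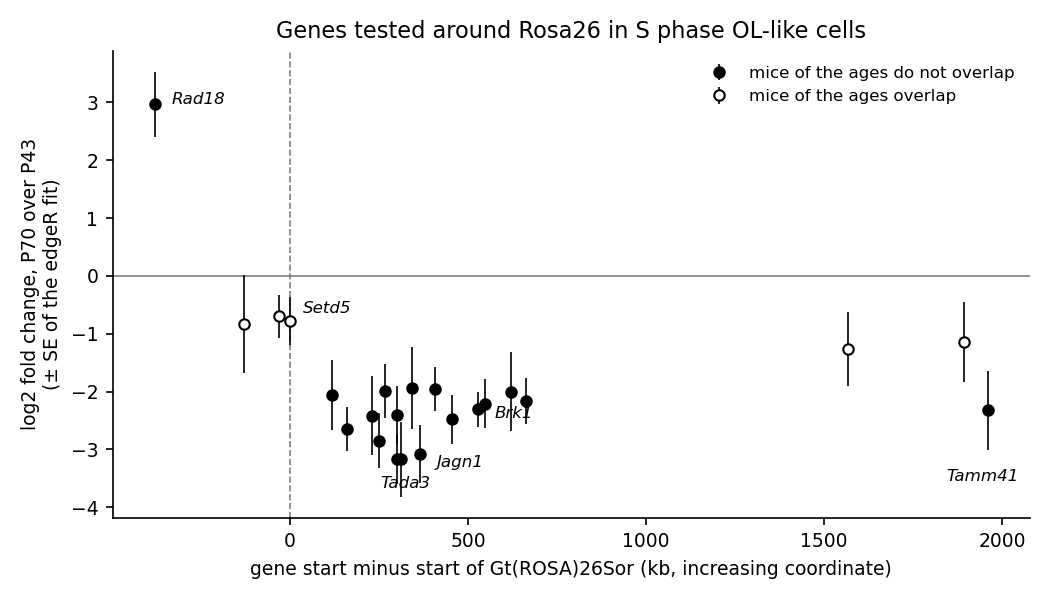
Log2 fold change of P70 over P43 in S phase OL-like cells (y axis, bars are the SE derived from the edgeR F statistic) for the 23 tested genes within 2000 kb of Gt(ROSA)26Sor, by the distance of the gene start from the start of that gene (x axis, kb, in order of rising coordinate). Filled circles are genes whose P43 and P70 mice do not overlap, 17 lower at P70 at higher coordinates than the start and Rad18 higher at lower coordinates.

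The step from low-cycle to S phase cells differed between the ages for some genes of the oligodendrocyte lineage. In a test of the interaction of class and age, 38 of 7304 genes were called with edgeR (0.52%), all 38 with a higher ratio of S phase to low-cycle cells at P70. Of 19 tested genes of the oligodendrocyte lineage outside the gate 5 were called, while Mbp, Mag, Mobp and Ermn were not. Flt1, an endothelial marker, was also called. Mal, a membrane protein of myelin, had an interaction of 2.23 ± 0.40 on the log2 scale (edgeR adjusted p = 0.00431). Its low-cycle cells had 989 and 1612 CPM in the P43 mice against 92.6 and 326 CPM at P70, while the S phase cells of the 4 mice lay between 123 and 273 CPM. Septin4, a septin of myelin, was among the 38, with 541, 481, 128 and 321 CPM in low-cycle cells and 123, 65.7, 114 and 218 CPM in S phase cells. DESeq2 called 1 gene for the same term, and leaving out 1 mouse gave 41 to 79. Not all of these went 1 way, with 8 of 46 lower without mouse 4 and 12 of 63 lower without mouse 7, and 16 and 18 of the 38 calls were shared with those fits.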

How the data were processed

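Per the submitters' processing notes, reads were handled with Cell Ranger 6.0.2 and mm10, and the matrices also hold features for FLUC and human MYCN. The authors deposited UMI counts per gene and barcode, 1 matrix per mouse (21861 features used). Libraries held 3430, 1739, 2972 and 3693 barcodes and 15044263, 13106786, 18698291 and 40621958 UMIs in mice 4 to 7. Labels and methods differ on single or dual indexing. Members and gene lists were chosen with earlier results of these data known. No doublet caller was run. Per the study's methods, cells of very high UMI count were removed as doublets, and here the upper limit of 40000 UMIs was applied. Counts were summed per mouse and class and tested with edgeR 4.0.16 (R 4.3.3; TMM, filterByExpr, quasi-likelihood, Benjamini-Hochberg limit 0.05) over all genes, with mouse as a block between classes, since both classes come from the same animals. Gate genes were left out of tests between classes. The SE of an edgeR log2 difference was derived as its size divided by the square root of the F statistic of its test. Genes outside the lists were named if called, the same way in every mouse and at 50 CPM or more in 1 class on average, at most 10 per direction. Some items are not reported here. The tests were checked on simulated counts in which 200 genes were changed 4-fold. The age test recovered 130 of them (65%) and the interaction test 141 (70.5%), so both would miss many changes of that size. The tests against low-cycle and G2/M cells recovered 200 and 199. False calls made up 7.8% of calls for age, 5.66% against low-cycle cells, 3.86% against G2/M cells and 2.08% for the interaction. Python 3.11.15, numpy 2.4.6, scipy 1.17.1, pandas 2.3.3 and DESeq2 1.42.0 were also used. Gene positions are GENCODE vM21 (21817 features matched). H2afz, H2afx and Hist symbols were read under their current names. The 3′ reads lie at transcript ends, so Trp53 counts do not check the deletion. The edgeR p-values between classes and of the interaction rest on how far the class difference varied among these 4 mice. Those between the ages rest on the spread between mice of an age.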

Additional observations from a re-analysis of the deposited data

Results flagged for a closer look

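The test of the interaction between class and age picked out oligodendrocyte genes of the lists, of which 4 are given here, each with a higher ratio of S phase to low-cycle cells at P70 than at P43 (log2 scale, edgeR quasi-likelihood test with Benjamini-Hochberg adjustment, 4 mice). Mal, a membrane protein of myelin, had an interaction of 2.23 ± 0.40 (adjusted p = 0.00431), and Mog 3.002 ± 0.58 (adjusted p = 0.00953). Tspan2, a tetraspanin of oligodendrocytes, had 1.46 ± 0.34 (adjusted p = 0.0451). Mal was at 989, 1612, 92.6 and 326 CPM in low-cycle cells of mice 4 to 7 and at 273, 123, 155 and 191 CPM in S phase cells, so that the P43 mice dropped and mouse 6 did not. Opalin, a late myelin gene, had a fitted interaction of 9.03, which is no measure of size because S phase cells of both P43 mice held 0 UMIs of it against 13.6 and 30.8 CPM at P70. Its low-cycle cells were at 116, 62.1, 2.10 and 66.8 CPM. Leaving out mouse 7 ended the call for Mog, mouse 4 that for Opalin and mouse 5 or mouse 7 that for Tspan2. Low-cycle cells numbered 43, 29, 38 and 465 in mice 4 to 7. With 2 tumors per age, age and tumor cannot be told apart.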

How the results depend on the processing

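Counts of called genes depended on the settings. Between the ages the 0 calls became 17 with DESeq2, 81 without a filter on low counts and 0 to 5 when each mouse was left out. Scaling by library size alone moved the median of all genes by 0.12 (log2). Between S phase and low-cycle cells the 95 calls became 38 with DESeq2, 40 with library size only, 315 without a filter, 771 with gates on thinned cells, 20 with a stricter gate (at least 4 S phase genes and no mitotic gene), 19 with equal cell numbers, 186 without cells of the doublet stand-in, 50 with sums of thinned cells and 41 to 145 when each mouse was left out. Between S phase and G2/M cells the 85 calls became 59 with DESeq2, 167 without a filter, 259 with gates on thinned cells, 15 with the stricter gate, 27 with equal cell numbers, 30 with sums of thinned cells and 64 to 104 when each mouse was left out. The 38 interaction calls became 1 with DESeq2, 21 with gates on thinned cells and 41 to 79 when each mouse was left out. Without mouse as a block the pairing of classes was lost, and calls went to 0 against low-cycle and to 40 against G2/M cells.

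The age difference in share of 1.43 points became −3.49 with gates on thinned cells, −0.21 without cells of the doublet stand-in and 0.0957 to 2.77 when each mouse was left out. Apoe went from 1.19 to −0.47 (log2, S phase over G2/M) with gates on thinned cells. Among values of named genes under the alternatives, 201 against low-cycle cells kept direction and side of the threshold and 87 kept the direction alone, against G2/M 155 and 36, for the interaction 14 and 10. For age, 72 stayed and 18 passed the threshold. No paired analysis was possible between the ages because P43 and P70 mice share no replicate numbers. Mouse 5 gave 10 cells, which limits every value in it.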

Other observations

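Of the 17 genes that DESeq2 called between the ages in S phase cells, 10 lay in the window around Gt(ROSA)26Sor and 7 did not (those named here were chosen after their values were seen). Vim, which encodes vimentin, was at 52.4 and 39.4 CPM in the P43 mice and at 418 and 273 CPM in the P70 mice. Col4a1, a basement membrane collagen, was at 13.7 and 13.1 CPM against 225 and 125 CPM, and Sparc, a matrix protein, at 11.4 and 26.3 CPM against 331 and 84.4 CPM. These 3 genes did not overlap between the ages. All 3 were highest in mouse 6, where mural markers summed to 977 CPM in S phase cells against 9.10 to 65.7 CPM in the other mice and 295 of 297 Rgs5 UMIs came from 1 cell, and their part in this was not tested. Fos was also higher at P70, at 27.3 and 4.38 CPM against 122 and 232 CPM. Cspg5 was lower at 34.2 and 158 CPM against 8.14 and 11.6 CPM, and Hexim1 was also among them. None of the 7 passed the edgeR quasi-likelihood test with all 4 mice, in which the adjusted p was 0.143 for Vim and Col4a1, 0.266 for Fos and 0.783 for Sparc.

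Hes5, a Notch target of neural progenitors, was at 0 and 8.77 CPM in S phase cells of the P43 mice and at 223 and 94.0 CPM in those of the P70 mice. It did not pass (edgeR adjusted p = 0.247, DESeq2 adjusted p = 0.414), and 24.8% of all genes tested were higher at P70 with no overlap. It was found in 0 of 25, 2 of 10, 7 of 15 and 42 of 137 cells of mice 4 to 7, and 1 cell of mouse 6 held 42 of its 82 UMIs. Low-cycle cells showed the same order, with 11.4 and 22.8 CPM against 204 and 154 CPM. Endogenous Mycn was at or below 1.52 CPM in S phase cells of every mouse, beside human MYCN at 187 to 1341 CPM.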
